A study of Mus musculus with 6 samples.

Results

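Cholesterol synthesis, uptake and sterol sensing is represented here by 29 genes, listed by symbol from knowledge of the pathway. The listing rule uses no measured value, but the genes were chosen with earlier results of these data known. They were looked up by single gene symbol on the arrays, where 26 of the 29 had a probe set, out of 18193 genes with a probe set of 1 symbol. The signals of the other members, Acat2, Nr1h2 and Soat1, were not analysed here, and only their promoter windows were used. All 26 measured members passed the filter on low signal that left 10685 genes to test. None of the 29 encodes a lipoprotein receptor, so uptake was read from a separate list of other genes.

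The samples were mouse C2C12 myoblasts, an established line of muscle precursor cells, in 2 groups of 3 samples with 1 Affymetrix Mouse Genome 430 2.0 array each. The pyruvate group was kept for 72 h in DMEM free of sodium pyruvate to which 50 mM sodium pyruvate was added, and the untreated group for 72 h in basal DMEM. Both media held 10% fetal bovine serum, 4 mM L-glutamine and 1% antibiotics, the cells grew in 100 mm dishes, and all samples came from the same line, with no genetic change named for either group. Serum carries cholesterol, and neither group was described as grown without it. The pyruvate content of the basal medium is not stated, and the extra sodium and osmolality of the pyruvate medium had no matched control among these samples. By its title, the study asked about mitochondrial biogenesis under pyruvate, and the sterol genes were read from the same comparison.

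Cells build cholesterol from acetyl-CoA through mevalonate, the isoprenoid diphosphates, squalene and lanosterol. Most enzymes of this route are driven by the membrane-bound transcription factor SREBP-2 (Srebf2), which is carried from the endoplasmic reticulum to the Golgi by SCAP when sterols are low and is held back by the INSIG proteins when sterols are high. The liver X receptors LXR alpha (Nr1h3) and LXR beta (Nr1h2) answer to oxidised sterols and drive the exporters Abca1 and Abcg1, so the synthesis side and the efflux side usually move in opposite directions when cellular sterol changes.

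The deposited values are MAS5 signals, a brightness per probe set on a linear scale, and each gene was read from its brightest probe set. Changes are differences of log2(signal + 16), pyruvate minus untreated, with the standard error (SE) of the limma fit, and a gene was called at a Benjamini-Hochberg adjusted p under 0.05 over all 22519 probe sets tested. The median signal of an array was 30.3 to 33.0, and arrays correlated at r = 0.990 to 0.993 within a group and 0.974 to 0.977 between groups across the probe sets tested, which are not independent replicates. Of the 5 myoblast markers all were well above the filter, and their summed signal was 5408 to 5791 on pyruvate arrays and 7581 to 7866 on untreated arrays. Most of that difference was Myog, which starts muscle differentiation, at 212 ± 40.1 in pyruvate cells and 1738 ± 44.1 in untreated cells (SD, n = 3 each). Myf5 and Cdh15 also fell, by 0.65 and 0.39 on the log2 scale, Myod1 rose by 0.26 (adjusted p = 0.0029) and Des was at -0.08 (adjusted p = 0.21). Markers of other cell types were dimmer. Of 4 fibroblast markers 2 passed the filter, Dcn (236 in pyruvate cells and 271 in untreated cells) and Pdgfra (54.0 in pyruvate cells and 35.0 in untreated cells), with list sums of 305 to 339 on pyruvate arrays and 331 to 341 on untreated arrays. Of 4 macrophage markers 2 passed, Csf1r (68.2 in pyruvate cells and 56.1 in untreated cells) and Cd68 (41.1 in pyruvate cells and 34.2 in untreated cells), with sums of 113 to 167 on pyruvate arrays and 115 to 147.5 on untreated arrays, while Ptprc did not. Of 3 endothelial markers Kdr passed and was called lower (25.8 in pyruvate cells and 40.4 in untreated cells, adjusted p = 0.043), with sums of 32.6 to 44.7 on pyruvate arrays and 50.3 to 63.4 on untreated arrays, while Pecam1 averaged 3.27 in pyruvate cells and 2.20 in untreated cells. Of 2 measured osteoblast markers Sp7 passed (40.8 in pyruvate cells and 43.5 in untreated cells), with sums of 35.9 to 57.5 on pyruvate arrays and 53.4 to 63.9 on untreated arrays. No measured adipocyte or hepatocyte marker passed the filter, which lay at a signal of about 30.3, and their sums were at most 33.6 on any array. The part of these differences in the sterol genes was not tested.

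Among the 26 measured sterol genes, 12 fell with pyruvate, 2 rose and 12 did not pass the test (limma). Over all 10685 genes tested, 14.5% fell, 20.7% rose and 35.1% were called either way. Counted by probe set, 15.9% fell, 16.3% rose and 32.2% were called. At an unadjusted p under 0.05 in the same limma fit, 2007 of the 10685 genes were lower and 2843 were higher. The median log2 change was -0.22 over the 26 genes and 0.03 over all genes tested. The 3 pyruvate arrays lay below all 3 untreated arrays in 16 of the 26 genes and above them in 2, where 20.0% and 28.6% of all genes did so. In whole cultures such as these, fewer cells of a type and less RNA per cell cannot be told apart. As nothing in the labels names separate cultures for the replicates, the p-values measure only the spread among these samples, which may be technical.

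**Figure D1:**
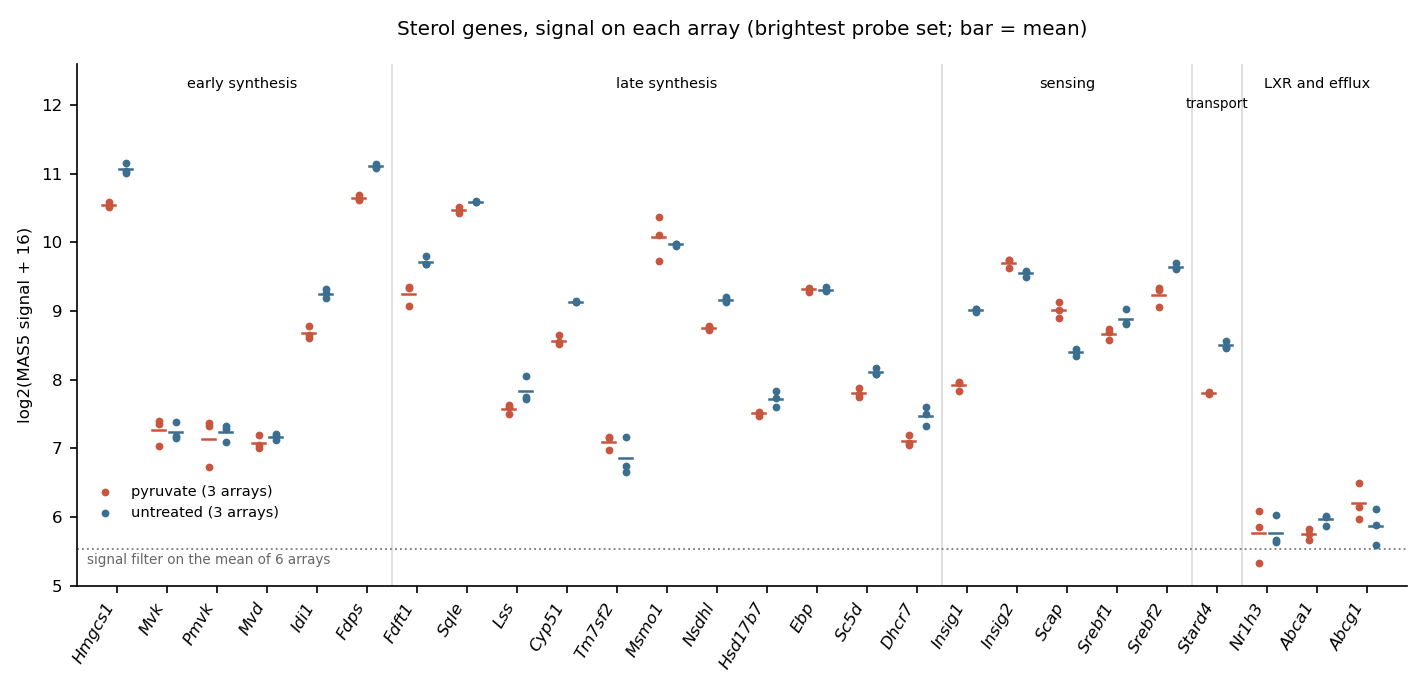
Signal of each sterol gene on each array, as log2(MAS5 signal + 16), with pyruvate in red at the left of each pair, untreated in blue, points for the 3 arrays of a group and bars for their mean; the dotted line is the signal filter. Insig1, Stard4, Idi1 and Cyp51 show pyruvate points clear below the untreated points, Scap shows them above, and Nr1h3, Abca1 and Abcg1 lie close to the filter.

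As SREBP factors work together with the CCAAT-binding factor NF-Y at many of these genes, promoter windows were read from RefSeq (GRCm38.p6), each with 250 bases before and 50 after the annotated start site. Windows were available for 24 of the 29 members and were missing for Fdps, Fdft1, Sqle, Stard4 and Abcg1. Those of 6 genes are shown, 4 that fell with pyruvate (Hmgcs1, Idi1, Insig1 and Srebf2), 1 that did not pass the test (Msmo1) and 1 that rose (Scap). Each runs 5′ to 3′ on the gene's strand, and capitals mark a match on either strand to the core of the sterol regulatory element, TCACNCCA, or to the NF-Y box, CCAAT, which reads ATTGG when it lies on the other strand.
Hmgcs1 promoter, chr13:119690101-119690400, plus strand: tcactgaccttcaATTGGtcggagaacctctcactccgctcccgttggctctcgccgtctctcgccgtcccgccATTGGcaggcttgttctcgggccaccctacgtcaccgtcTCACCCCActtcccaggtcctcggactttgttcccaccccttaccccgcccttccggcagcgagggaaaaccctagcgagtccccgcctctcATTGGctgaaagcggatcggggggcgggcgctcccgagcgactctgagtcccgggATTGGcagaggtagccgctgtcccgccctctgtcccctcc
Idi1 promoter, chr13:8885356-8885655, plus strand: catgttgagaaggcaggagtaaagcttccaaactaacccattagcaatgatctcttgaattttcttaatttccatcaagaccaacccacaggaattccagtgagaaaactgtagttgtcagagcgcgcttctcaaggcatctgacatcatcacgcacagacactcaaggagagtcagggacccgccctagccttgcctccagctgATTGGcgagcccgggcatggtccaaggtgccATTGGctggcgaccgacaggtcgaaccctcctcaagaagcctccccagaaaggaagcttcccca
Insig1 promoter, chr5:28071162-28071461, plus strand: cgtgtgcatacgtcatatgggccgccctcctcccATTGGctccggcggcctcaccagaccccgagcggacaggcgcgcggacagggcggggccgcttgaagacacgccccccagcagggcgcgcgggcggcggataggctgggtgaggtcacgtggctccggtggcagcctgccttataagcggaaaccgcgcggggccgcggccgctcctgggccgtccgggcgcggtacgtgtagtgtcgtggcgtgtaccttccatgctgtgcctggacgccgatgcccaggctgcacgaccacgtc
Srebf2 promoter, chr15:82147019-82147318, plus strand: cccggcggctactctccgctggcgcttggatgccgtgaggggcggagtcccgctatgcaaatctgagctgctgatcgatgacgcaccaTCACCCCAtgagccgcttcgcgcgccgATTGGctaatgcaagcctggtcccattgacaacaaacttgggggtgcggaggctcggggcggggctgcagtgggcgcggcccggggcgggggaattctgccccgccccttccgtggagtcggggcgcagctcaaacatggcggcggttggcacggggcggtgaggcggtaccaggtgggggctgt
Msmo1 promoter, chr8:64733529-64733828, minus strand: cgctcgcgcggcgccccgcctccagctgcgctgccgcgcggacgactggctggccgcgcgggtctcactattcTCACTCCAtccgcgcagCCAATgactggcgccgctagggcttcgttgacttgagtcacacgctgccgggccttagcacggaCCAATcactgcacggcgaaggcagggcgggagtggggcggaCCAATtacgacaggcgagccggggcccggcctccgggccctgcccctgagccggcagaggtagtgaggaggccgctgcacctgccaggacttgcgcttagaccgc
Scap promoter, chr9:110333038-110333337, plus strand: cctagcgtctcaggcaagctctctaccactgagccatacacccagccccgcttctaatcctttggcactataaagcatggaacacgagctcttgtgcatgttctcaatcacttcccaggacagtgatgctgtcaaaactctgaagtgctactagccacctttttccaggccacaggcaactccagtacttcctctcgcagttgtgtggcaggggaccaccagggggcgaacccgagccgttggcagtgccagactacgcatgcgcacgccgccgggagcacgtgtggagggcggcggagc
The core of the sterol regulatory element matched once in the Hmgcs1 window, from -137 to -130, once in Srebf2, from -162 to -155, and once in Msmo1, from -177 to -170, counting from the start site as 0. These were the only matches in the members' windows, 3 of 33 (9.09%), and all of them are among the windows shown. In the synthesis genes they were 2 of 18 windows (11.1%). Only this form of the core was searched, so a window without a match may still hold a sterol regulatory element of another form. The core matched in 4.36% of all 32851 windows in the table and in 4.05% of the 21263 windows of protein-coding genes. NF-Y boxes numbered 4 in the Hmgcs1 window, 3 in Msmo1, 2 in Idi1, 1 each in Insig1 and Srebf2 and 0 in the Scap window shown. Across the synthesis genes with a window, 14 of 15 held an NF-Y box in at least 1 window, and by window 14 of 18 (77.8%) did, against 38.2% of protein-coding windows and 37.4% of all windows. The 2 motifs overlapped nowhere in the members' windows. An LXR element, written as a pair of exact AGGTCA repeats on the same strand with 4 bases of any kind between them, was found in 0 of the 33 member windows. It was found in 0.0152% of all windows and in 0 of the 21263 protein-coding windows. So strict a form could hardly match here, and its absence says nothing particular about the members or about Abca1. Looser forms were not searched. These matches describe the letters of the windows and were not tested against the changes in signal. Msmo1 held both motifs and did not pass the test, while Dhcr7, which fell, held an NF-Y box in 1 of its 3 windows.

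**Figure D2:**
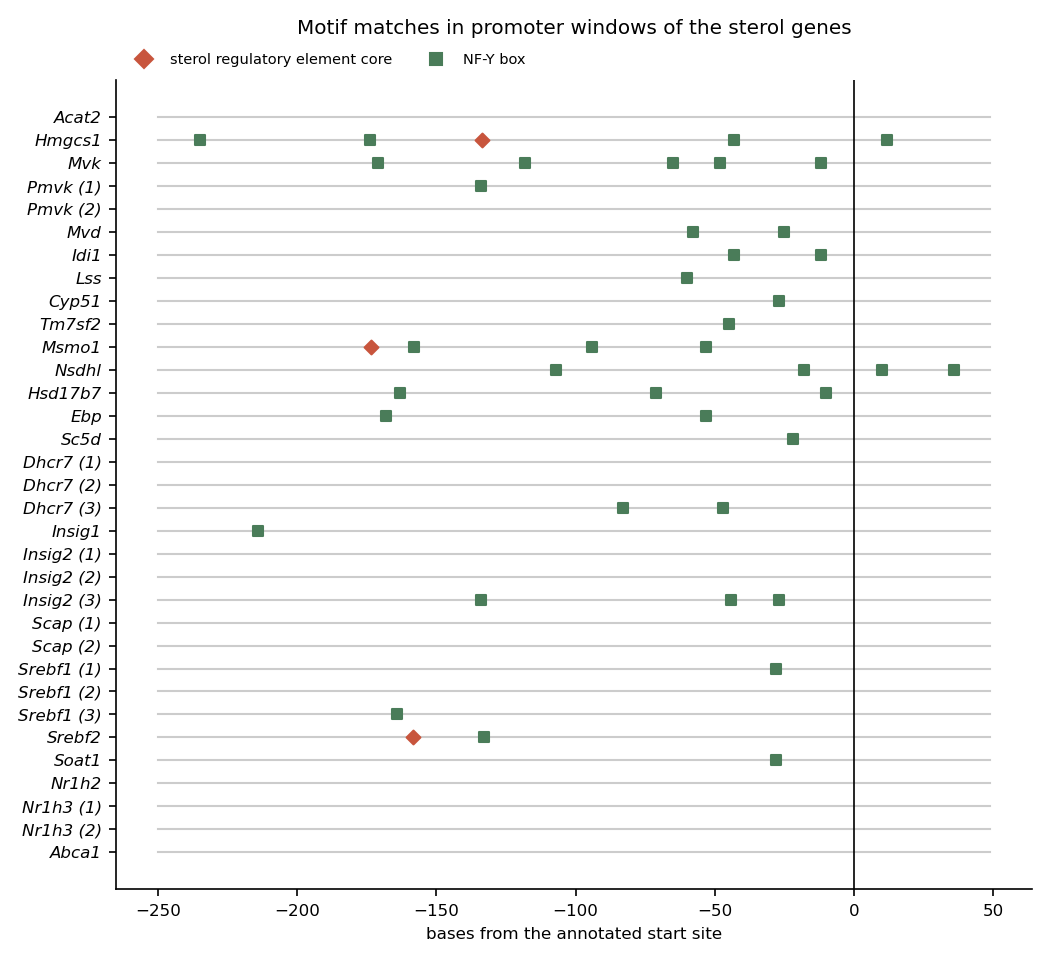
Motif matches in the promoter windows of 24 sterol genes, 1 row per window with gene symbols at the left (numbered where a gene has several start sites), against distance in bases from the annotated start site. Diamonds are cores of the sterol regulatory element, seen in Hmgcs1, Msmo1 and Srebf2, and squares are NF-Y boxes, seen in 14 of the 15 synthesis genes with a window.

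In the early part of synthesis, from acetyl-CoA to farnesyl diphosphate, 3 of 6 measured genes fell and 0 rose (also 3 and 0 at an unadjusted p under 0.05 in the same limma fit), with a median log2 change of -0.28. Among all genes tested, 14.5% fell and 20.7% rose. Hmgcs1, the cytosolic HMG-CoA synthase that precedes mevalonate, had signals of 1525, 1443 and 1470.0 on the pyruvate arrays and 2076, 2273 and 2047 on the untreated arrays. The groups did not overlap, and the mean in pyruvate cells was 69.4% of that in untreated cells, a log2 change of -0.52 (SE 0.05, adjusted p = 3.3e-05). Idi1, the isomerase that makes dimethylallyl diphosphate, had signals of 386, 374 and 425 in pyruvate cells, against 595, 565 and 621 in untreated cells. It fell by 0.57 on the log2 scale (SE 0.06, adjusted p = 6.0e-05). Fdps, farnesyl diphosphate synthase, had signals of 1550.1, 1639 and 1575 in pyruvate cells, against 2144, 2176 and 2235 in untreated cells. It fell by 0.46 (SE 0.05, adjusted p = 3.2e-05), again with no overlap of the groups.

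The kinases and the decarboxylase between these enzymes did not pass the test. Mvk, mevalonate kinase, averaged 138 ± 20.9 in pyruvate cells and 135 ± 13.6 in untreated cells (SD, n = 3 each), with a log2 change of 0.02 and a 95% interval from -0.23 to 0.27. Pmvk, phosphomevalonate kinase, was at 89.9, 149.9 and 144.0 in pyruvate cells and 144.9, 121.0 and 140.1 in untreated cells, with pyruvate replicate 1 the lowest array and the other two above most of the untreated arrays. Its change was -0.10, with an interval of -0.43 to 0.24. Mvd, mevalonate diphosphate decarboxylase, was at 130.8, 115.9 and 112.7 in pyruvate cells and 129.5, 122.5 and 131.7 in untreated cells, a change of -0.09 (interval -0.28 to 0.11). For Mvk and Mvd the interval leaves out a fall as large as that of Hmgcs1, whose own interval was -0.64 to -0.41.

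In the late part, from farnesyl diphosphate to cholesterol, 5 of 11 genes fell and 0 rose (8 and 0 at an unadjusted p under 0.05), with a median of -0.27. Again, 14.5% of all genes tested fell and 20.7% rose. Cyp51, the lanosterol demethylase, had signals of 384, 349.8 and 357 in pyruvate cells, against 545, 542 and 548 in untreated cells. It fell by 0.56 (SE 0.06, adjusted p = 2.8e-05), and its untreated arrays differed by less than 10 signal units. Fdft1, squalene synthase, had signals of 634, 521 and 629 in pyruvate cells, against 803, 807 and 871 in untreated cells, and fell by 0.47 (SE 0.07, adjusted p = 0.00064). Nsdhl, a dehydrogenase that helps strip methyl groups from the sterol ring, had signals of 405, 424 and 417 in pyruvate cells, against 574, 542 and 559.6 in untreated cells, and fell by 0.41 (SE 0.05, adjusted p = 0.00015). The pyruvate arrays lay below the untreated arrays for all 3 genes, as they did in 20.0% of all genes tested.

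Both enzymes of the last steps fell as well. Dhcr7, the reductase that finishes cholesterol, averaged 122 ± 7.47 in pyruvate cells and 162 ± 16.5 in untreated cells, a log2 change of -0.36 (SE 0.09, adjusted p = 0.012); without untreated replicate 1 its adjusted p was 0.064. Sc5d, the desaturase before it, averaged 207 ± 10.2 in pyruvate cells and 261 ± 10.1 in untreated cells, a change of -0.31 (SE 0.07, adjusted p = 0.0049). Whether these changes differ from those of Cyp51 or Fdft1 was not tested.

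Sqle, squalene epoxidase and a slow step of the route, had signals of 1449.9, 1395 and 1354 in pyruvate cells, against 1525, 1517 and 1540.2 in untreated cells. All pyruvate arrays were lower, but the change was -0.13 with an interval of -0.23 to -0.02 and an adjusted p of 0.060. It passed with quantile normalization (-0.16, adjusted p = 0.015) and, of the 6 fits without 1 array, in that without pyruvate replicate 1 (adjusted p = 0.029). Lss, lanosterol synthase (-0.27, adjusted p = 0.054), and Hsd17b7, a sterol ketoreductase (-0.22, adjusted p = 0.064), likewise had all pyruvate arrays below the untreated ones without passing. Without untreated replicate 1, Lss reached an adjusted p of 0.046, and without untreated replicate 3, Hsd17b7 reached 0.040, the only such fit of 6 that called each. Without untreated replicate 2, Lss was at -0.16 (adjusted p = 0.21) and Hsd17b7 at -0.16 (adjusted p = 0.22).

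The remaining late enzymes were not lower in the mean. Ebp, the sterol isomerase, averaged 619.97 ± 13.4 in pyruvate cells and 619 ± 14.3 in untreated cells, a change of 0.00 (interval -0.11 to 0.11). Msmo1, the methylsterol oxidase, was at 834, 1303 and 1089.9 in pyruvate cells and 974, 993 and 988 in untreated cells. Its untreated arrays lay close together while its pyruvate arrays lay on both sides of them, and the change was 0.10 (interval -0.16 to 0.36). Without pyruvate replicate 1 it was 0.27 (adjusted p = 0.016) and without pyruvate replicate 2 it was -0.046 (adjusted p = 0.75), so single arrays set both its call and its direction. Tm7sf2, a sterol reductase, was at 126.5, 126.8 and 110.3 in pyruvate cells and 90.5, 127.6 and 84.9 in untreated cells, a change of 0.25 (adjusted p = 0.18). Without untreated replicate 2, the high array of its group, the change was 0.40 (adjusted p = 0.024), and without untreated replicate 3 it was 0.15 (adjusted p = 0.48); the other 4 fits without 1 array did not call it.

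**Figure D3:**
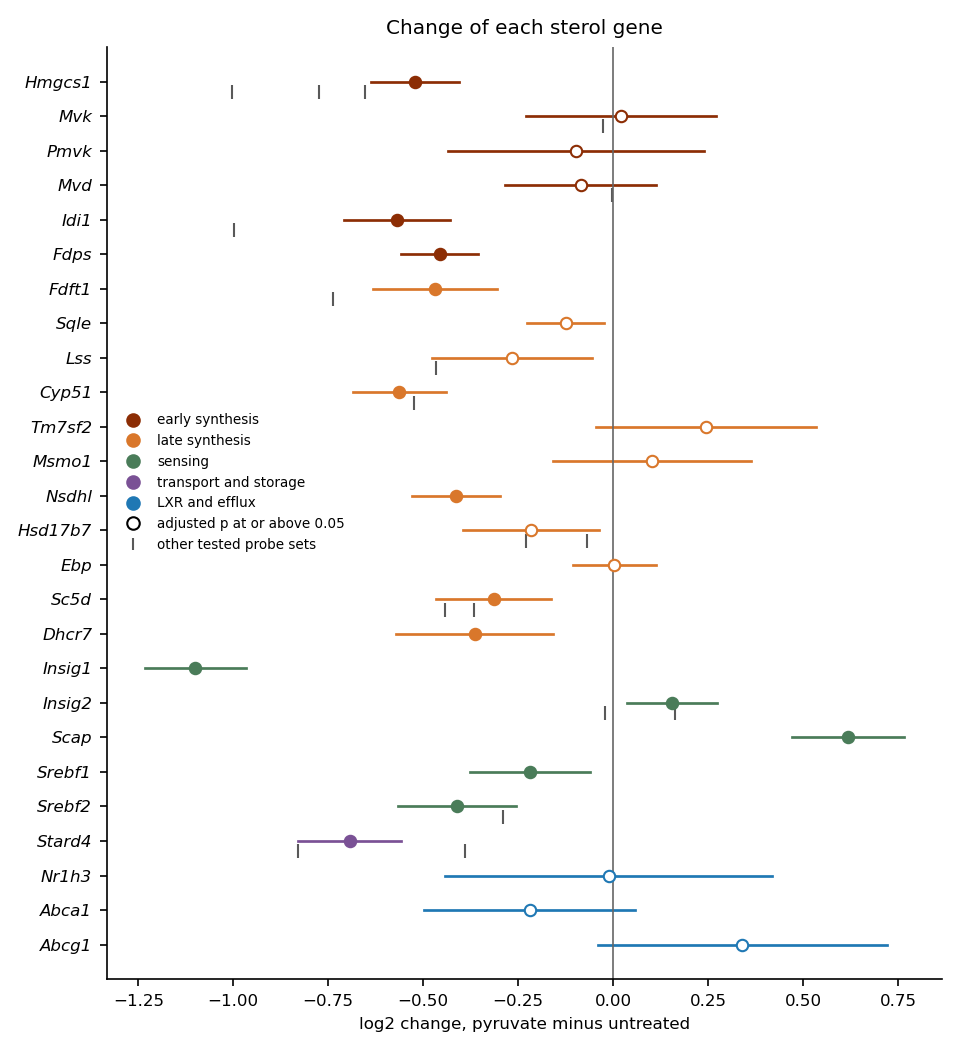
Log2 change of each sterol gene, pyruvate minus untreated, with its 95% interval; circles are the brightest probe sets, filled where the adjusted p was under 0.05, colours give the role, and grey ticks are the gene's other tested probe sets. Insig1 stands lowest at -1.10 and Scap highest at 0.62, and the other tested probe sets of Hmgcs1, Idi1 and Fdft1 lie further to the left than the brightest ones.

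All 5 genes of the sensing machinery passed the test, 3 lower and 2 higher with pyruvate, but under cyclic loess scaling only 3 did, 2 lower and 1 higher, with Insig2 and Srebf1 no longer called. Over all genes tested, 35.1% were called either way with the authors' scaling. Insig1, which retains the SCAP-SREBP complex in the endoplasmic reticulum and is itself a target of SREBP, had signals of 212, 233 and 231 on pyruvate arrays and 492.5, 508 and 504 on untreated arrays. The mean in pyruvate cells was 45.0% of that in untreated cells, a log2 change of -1.10 (SE 0.06, adjusted p = 4.1e-07). Of the 10685 genes tested, 51 had a lower log2 change. Insig2, which also retains SCAP but whose transcription is regulated differently, had signals of 843, 772 and 842 in pyruvate cells, against 751, 707 and 741 in untreated cells. It rose by 0.16 (SE 0.05, adjusted p = 0.046), although 5 of the 6 fits that left out 1 array did not call it; it was called only without pyruvate replicate 2 (adjusted p = 0.022), and the adjusted p ranged to 0.16. The intervals of the INSIG genes, -1.23 to -0.97 for Insig1 and 0.04 to 0.27 for Insig2, lay far apart, but the difference between the genes was not tested.

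Scap, the escort of SREBP, had signals of 544, 500.1 and 462 in pyruvate cells, against 322, 309 and 332 in untreated cells. It rose by 0.62 (SE 0.07, adjusted p = 5.2e-05), to 156% of the untreated mean, and was the largest rise among the 26 sterol genes; the Scap promoter window shown held neither motif. Srebf2, which encodes SREBP-2 and is its own target, had signals of 630.3, 518 and 613 in pyruvate cells, against 762, 811 and 776 in untreated cells. It fell by 0.41 (SE 0.07, adjusted p = 0.0011). Srebf1, whose products SREBP-1a and SREBP-1c drive fatty acid synthesis more than cholesterol synthesis and which is also a target of LXR, averaged 391 ± 22.7 in pyruvate cells and 459 ± 41.2 in untreated cells. It fell by 0.22 (SE 0.07, adjusted p = 0.037), with untreated replicate 2 the highest array. Without untreated replicate 2 its change was -0.15 (adjusted p = 0.15), without pyruvate replicate 2 its adjusted p was 0.067 and without pyruvate replicate 3 it was 0.13. Its call was also lost with cyclic loess scaling (adjusted p = 0.054), median scaling (0.080), no signal filter (0.091) and no variance trend (0.095). The array signals measure mRNA, and cleavage of the SREBP proteins was not measured.

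Stard4, a carrier that moves cholesterol between membranes and is a target of SREBP-2, had signals of 211, 206.5 and 206 in pyruvate cells, against 339.6, 361 and 338 in untreated cells. It fell by 0.69 (SE 0.06, adjusted p = 1.3e-05), to 60.1% of the untreated mean. The pyruvate arrays were within 6 signal units of each other and far below the untreated ones.

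On the efflux side, none of the 3 measured genes passed the limma test, and 0 of 3 had an unadjusted p under 0.05. Over all genes tested, 35.1% passed it. Abca1, which loads cholesterol onto apolipoprotein A-I, was at 40.7, 37.7 and 34.7 in pyruvate cells and 42.7, 48.2 and 48.7 in untreated cells. Its pyruvate arrays were all lower, with a change of -0.22, an interval of -0.50 to 0.06 and an adjusted p of 0.21. The other Abca1 probe sets did not pass the filter, and their groups overlapped. They averaged 29.3 and 4.17 in pyruvate cells and 26.4 and 6.87 in untreated cells, differing in direction. Abcg1, which passes cholesterol to high-density lipoprotein, was at 54.9, 74.1 and 46.5 in pyruvate cells and 32.1, 53.6 and 42.8 in untreated cells, a change of 0.34 (interval -0.04 to 0.72, adjusted p = 0.16). That change was 0.19 without pyruvate replicate 2 and 0.20 without untreated replicate 1. Nr1h3, which encodes LXR alpha, was at 24.4, 52.0 and 41.9 in pyruvate cells and 33.6, 49.1 and 34.5 in untreated cells, a change of -0.01 (interval -0.44 to 0.42); the sign was positive under quantile, cyclic loess and median scaling. These 3 genes lay near the filter, at a signal of about 30.3, where the added 16 makes changes look smaller.

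Set side by side, 8 of 17 synthesis genes fell and 0 rose (11 and 0 at an unadjusted p under 0.05), with a median change of -0.27, while the 3 efflux genes had a median of -0.01 and changes of both signs. Of all 10685 genes tested, 14.5% fell and 20.7% rose by limma (2007 and 2843 genes at an unadjusted p under 0.05). Averaged over the 17 synthesis genes, the log2 signal was 8.48, 8.55 and 8.53 on the pyruvate arrays and 8.77, 8.78 and 8.74 on the untreated arrays, with no overlap. Averaged over the 3 efflux genes it was 5.77, 6.11 and 5.83 on the pyruvate arrays and 5.70, 6.05 and 5.85 on the untreated arrays, which overlapped. The SEs of the efflux genes were 0.13 to 0.20, against 0.05 (Fdps) to 0.15 (Pmvk) for the synthesis genes. The intervals of Abca1 and Nr1h3 took in the synthesis median of -0.27, so a fall of that size could have been missed in them. The interval of Abcg1, -0.04 to 0.72, left it out. On this scale, which makes changes near the filter look smaller, the intervals of all 3 genes left out the -0.52 of Hmgcs1. No opposite movement of the LXR exporters was detectable at these signals, and the difference between the sides was not tested.

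Other genes of the pathway came from lists of names drawn from knowledge of the pathway, also with earlier results known. Among genes of lipoprotein uptake and intracellular cholesterol transport, 6 of 10 rose and 0 fell by limma (6 and 0 at an unadjusted p under 0.05), with a median of 0.39 (0.26 after quantile normalization), against rises in 20.7% of all genes; Vldlr did not reach the filter. Lrp1, an endocytic lipoprotein receptor of broad specificity, averaged 1413 ± 70.4 in pyruvate cells and 889 ± 21.7 in untreated cells, and rose by 0.66 (adjusted p = 5.2e-06). Cav1, the main protein of cholesterol-rich caveolae, rose by 0.57 (adjusted p = 2.2e-05). Lipa, the lysosomal lipase that frees cholesterol from its esters, rose by 0.49 (adjusted p = 0.00038). Npc2, which hands on cholesterol inside the lysosome, rose by 0.50 (adjusted p = 0.00024) as the authors scaled the arrays and by 0.13 after quantile normalization (adjusted p = 0.014). The other 4 did not pass, with Stard3 at 0.13, Osbp at 0.00, Gramd1a at -0.21 and Lrp8 at -0.22. The difference between this list and the synthesis genes was not tested.

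Of 6 measured branch and side enzymes, 1 fell and 1 rose, against 14.5% and 20.7% of all genes, with a median of 0.02. Lbr, the lamin B receptor, which is also a sterol reductase, averaged 729 ± 22.4 in pyruvate cells and 1001 ± 25.9 in untreated cells, and fell by 0.45 (adjusted p = 5.2e-05). Dhdds, which draws on farnesyl diphosphate to make dolichol, rose by 0.25 (adjusted p = 0.011). Of 10 measured genes that process SREBP or degrade sterol-regulated proteins, 2 rose and 1 fell, with a median of -0.08. In this list, as among the branch enzymes, the counts lie near the shares of all genes and say nothing particular about the list. Faf2 and Rnf139, both of the degradation machinery of the endoplasmic reticulum, rose by 0.25 (adjusted p = 0.013) and 0.21 (adjusted p = 0.026). Mbtps2, the protease that makes the final cut in SREBP, fell by 0.20 (adjusted p = 0.040), and after quantile normalization its adjusted p was 0.054.

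Of 7 measured LXR partners and targets, Smpdl3a did not reach the filter. Of the 6 tested, 1 fell and 0 rose (also 1 and 0 at an unadjusted p under 0.05), with a median of -0.11, where 14.5% of all genes fell. The 1 that fell was Mylip, a ubiquitin ligase of lipoprotein receptors induced by LXR, which averaged 296 ± 21.1 in pyruvate cells and 408 ± 25.4 in untreated cells. It fell by 0.44 (adjusted p = 0.00062), and it was well above the filter. Pltp and Lpcat3, LXR targets that were brighter still, did not pass, at -0.07 (adjusted p = 0.35) and 0.07 (adjusted p = 0.64). The retinoid partners Rxra and Rxrb did not pass, at -0.19 (adjusted p = 0.16) and 0.05 (adjusted p = 0.77). Of 11 fatty acid genes under SREBP-1, 7 fell and 0 rose (8 and 0 at an unadjusted p under 0.05), with a median of -0.23. Of all genes tested, 14.5% fell and 20.7% rose. Among the 7 that fell were Elovl6, a fatty acid elongase, and the desaturase Scd1, at -0.78 and -0.39 (adjusted p = 4.2e-06 and 7.8e-05). The 4 that did not pass were Acss2 at -0.26, Acaca at 0.07, Acly at 0.08 and Lpin1 at 0.20.

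**Figure D4:**
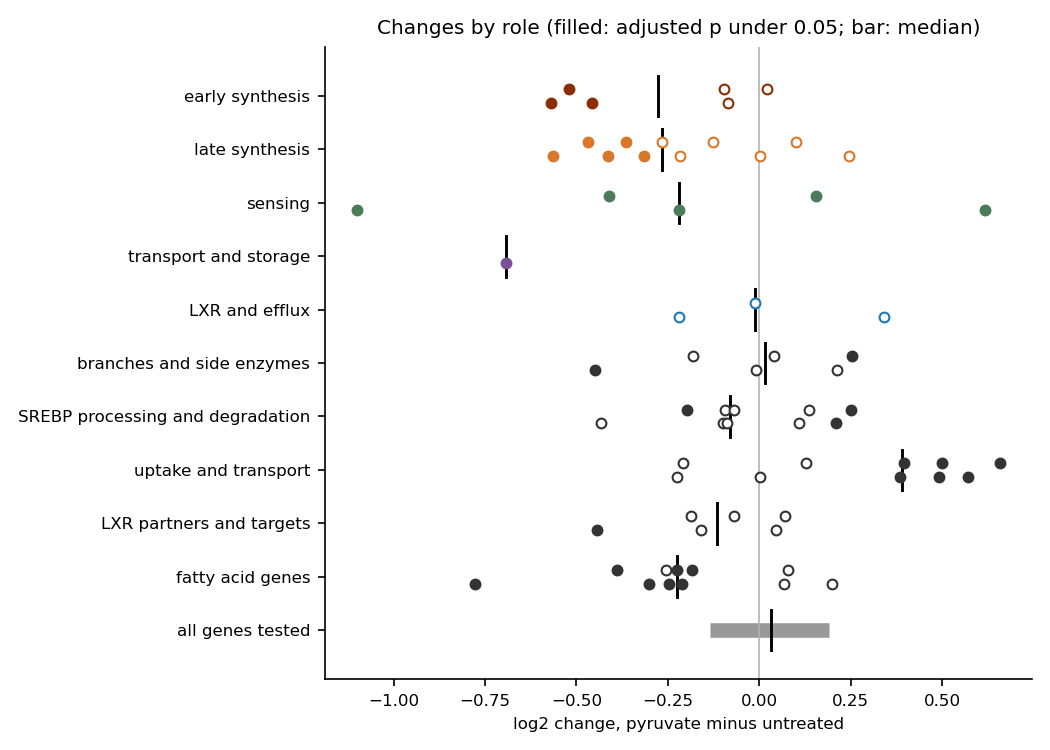
Log2 changes, pyruvate minus untreated, of the tested genes in each role of the sterol pathway and in the related lists. Filled circles had an adjusted p under 0.05 (limma), vertical bars are medians, and the grey bar at the bottom is the interquartile range of all 10685 genes tested. Synthesis and fatty acid genes lie mostly left of 0, uptake and transport genes mostly right, and the 3 efflux genes spread over both sides.

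The effect of the array scaling depended on brightness. As the authors scaled the arrays, the 864 probe sets with a mean log2 signal over 11 were a median of 0.23 higher with pyruvate. Spiked-in control transcripts, which do not come from the cells, were higher by a mean of 0.58 over 18 probe sets. No scaling to these transcripts was run, so the changes of the sterol genes relative to them were not tested. The brightest sterol genes, Fdps and Hmgcs1, had means between 10 and 11, below those 864 probe sets. Probe sets between 10 and 11 had a median change of 0.034. Probe sets with a mean between 8 and 9, where several sterol genes lie, had a median of -0.0028. After quantile normalization, which levels this trend, the bright genes Hmgcs1 and Fdps were at -0.58 and -0.52 (adjusted p = 1.1e-05 and 4.6e-06), slightly further from 0 than before. With that scaling 13 of the 26 genes fell and 2 rose, where 14.7% of all genes fell and 19.9% rose.

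**Figure D5:**
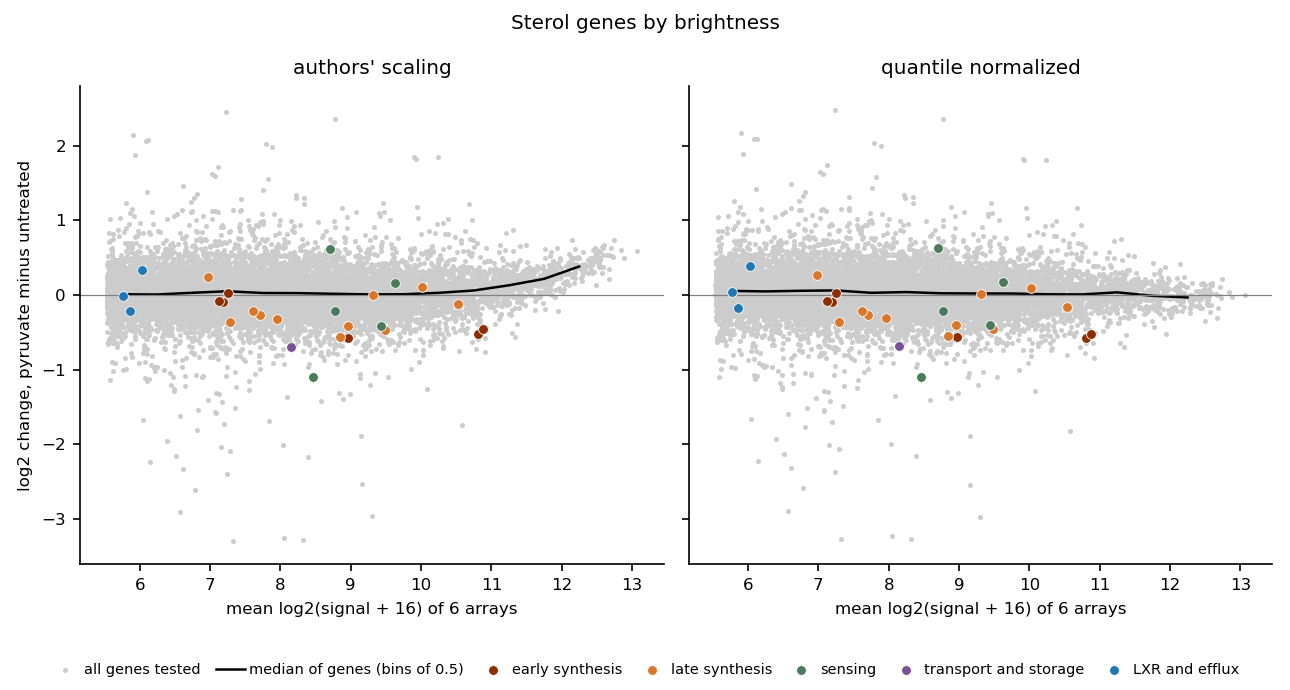
Log2 change of all 10685 genes tested (grey) and of the sterol genes (coloured by role) against mean log2(signal + 16) over the 6 arrays, with the authors' scaling at the left and after quantile normalization at the right; the black line is the median of genes in bins of 0.5. The rise of the median at the bright end goes away with quantile normalization, while Hmgcs1 and Fdps, the 2 early synthesis genes near 11, stay below -0.4 in both panels.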

How the data were processed

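RNA of 3 pyruvate and 3 untreated samples of C2C12 myoblasts was measured on 1 array each. The deposited intensity values are MAS5 signals on a linear scale, per the submitters' processing notes, which name no version or settings for it here. The trimmed mean was 150.0 on every array (2% removed at each end), so the authors had scaled the arrays alike, and that scaling was kept. Per the labels' protocols, RNA was extracted with TRIzol and labelled as biotinylated cRNA. Arrays have no read depth, and their number limits the precision.

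Of 45101 probe sets, 64 were controls and were not tested. Of the others, 34945 carried 1 gene symbol in the platform annotation, 932 several and 9160 none. Probe sets entered the test at a mean log2(signal + 16) of at least 5.53, the median. Groups were compared with limma 3.58.1 in R 4.3.3 (lmFit, two-sided tests from eBayes, variances fitted as a trend on the mean, no block), and a gene was read from its brightest probe set. Adjusted p-values come from this fit unless an alternative is named. The fit was tested on simulated data with known changes. No test was run over a list. All 29 members were to be named, and up to 4 called genes of each other list. Members and lists were chosen with earlier results of these data known. Replicate numbers did not pair the samples: deviations of same-numbered arrays correlated at -0.01 to 0.02. Figures were drawn with matplotlib 3.10.9.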

Additional observations from a re-analysis of the deposited data

How the results depend on the processing

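The fit was repeated with another pseudocount (1 or 64), a stricter filter or none, quantile, cyclic loess and median scaling, other variance models, array weights, the replicate block, other probe sets of a gene, a minimum change and each array left out. Of 477 values of single sterol genes under them, 426 kept direction and call, 17 lost the call, 14 gained it and 20 changed sign. These values leave out the minimum change, under which 5 of the 12 genes that fell kept the call. Under the other alternatives run for them, 10 of the 12 were called throughout; the exceptions were Dhcr7 and Srebf1. With the replicate block, 13 sterol genes fell and 2 rose, 9 of the synthesis genes fell, and 3510 probe sets rose and 3407 fell. The count of sterol genes that rose was 1 without a signal filter, with cyclic loess, without the variance trend, with each gene's probe sets averaged and with the second brightest probe set, and Insig2 lost its call in the first 4 of these. Requiring a log2 change of at least 0.5 left 1 sterol gene higher, 5 lower and 3 synthesis genes lower, and 907 probe sets higher and 1070 lower. Leaving out each array in turn gave 1 to 2 sterol genes higher, 11 to 13 lower, 8 to 9 synthesis genes lower, 2797 to 3489 probe sets higher and 2580 to 3559 lower. The sign changes were all in genes with no call. Nr1h3 was at 0.037 with quantile and with cyclic loess scaling, 0.022 with median scaling and 0.048 with array weights, and ranged from -0.18 to 0.20 without single arrays. Ebp was at -0.0065 with cyclic loess and -0.0072 with array weights, and ranged from -0.0093 to 0.021 without single arrays. Mvk was at -0.0028 with its probe sets averaged and -0.027 with the second brightest, and ranged from -0.049 to 0.14 without single arrays. Pmvk ranged from -0.21 to 0.11 and Msmo1 from -0.046 to 0.27. The cause of these shifts was not tested.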

Other observations

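The probe sets of a sterol gene did not give 1 size of change. Of the 56 probe sets of the 26 genes, 30 were not the brightest of their gene, and 18 of these passed the filter. Among the 18, 11 were lower with pyruvate, 1 was higher and 6 did not pass (limma), and 16 had the sign of the brightest. Of all probe sets tested, 15.9% were lower and 16.3% higher. Hmgcs1, at -0.52 on its brightest probe set, was at -0.77, -1.004 and -0.65 on the others that were tested. The probe set at -1.004 had signals of 555, 492 and 510.4 in pyruvate cells, against 1039, 1037 and 1092 in untreated cells (adjusted p = 4.7e-07). Idi1, at -0.57, was at -0.998 on its other probe set (adjusted p = 1.9e-06), with mean signals of 171 in pyruvate cells and 358 in untreated cells. Fdft1, at -0.47, was at -0.74 on its other tested probe set (adjusted p = 4.0e-06), and Stard4, at -0.69, was at -0.83 and -0.39. Lss was not called on its brightest probe set but was called on a dimmer one, at -0.47 (adjusted p = 0.018). Hsd17b7, at -0.22, was at -0.07 (adjusted p = 0.75) and -0.23 (adjusted p = 0.11) on its other tested probe sets, where the groups overlapped. Of the tested Insig2 probe sets, 1 did not rise (-0.02, adjusted p = 0.83). Where in the transcripts these probe sets lie was not examined.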
